A study of Mus musculus with 3 samples.

Results

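The genes described here are the subunits of the mitochondrial respiratory chain that the nucleus encodes. They were chosen by name among the protein-coding genes of the deposited table, as the Nduf genes followed by a, b, c, s or v and a number, Sdha to Sdhd, the Uqcr genes, Cyc1, the Cox4 to Cox8 genes and the Atp5 genes. The rule took 85 of 48709 genes, namely 35 of complex I, 4 of complex II, 9 of complex III, 20 of complex IV, 15 of ATP synthase (complex V) and 2 related factors, Atp5s and Atp5sl. Ndufa4 and Ndufa4l2 carry a complex I name but are counted here with complex IV, to which the Ndufa4 protein is known to belong and Ndufa4l2 is its relative. The table holds RNA-seq of 3 libraries in 1 group, labelled WT lung smooth muscle cells. All 3 came from mice that carried CreERT2, a tamoxifen-activated recombinase, under smooth muscle actin control, together with the red fluorescent protein tdTomato. From an age of 8 weeks the mice were injected intraperitoneally with tamoxifen at 75 mg/kg once a day for 10 days, and lung cells were dissociated and sorted 2 months later. The labels name neither the marker nor the gate of the sort, and nothing in them ties a library to a mouse of its own, so the spread between libraries may be technical. No library without the transgenes or without tamoxifen was analysed here. With 1 group there was no contrast between conditions, and the values below are levels with their mean and SD over 3 libraries. The smallest p of an exact sign-flip test over 3 libraries is 0.25, and differences within libraries were therefore not tested.

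The respiratory chain passes electrons from NADH and succinate to oxygen and pumps protons across the inner mitochondrial membrane, and ATP synthase uses the proton gradient to make ATP. Complex I oxidises NADH, complex II oxidises succinate, complex III passes electrons from ubiquinol to cytochrome c, and complex IV, cytochrome c oxidase, passes them to oxygen. Most subunits are encoded in the nucleus and imported, whereas a small hydrophobic set is encoded by the mitochondrial DNA. Several complex IV subunits exist as a widely expressed form and a form restricted to heart and skeletal muscle, lung or testis.

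The libraries held 18896263, 18355813 and 16877297 counts, and a floor of 3 counts, below which a gene may be missed, was 0.159, 0.163 and 0.178 CPM (a gene's counts per 1000000 counts of its library) for counting error only. Nuclear protein-coding genes took 56.9%, 58.8% and 63.0% of the counts and genes annotated as microRNAs 15.1%, 12.9% and 8.36%, so a CPM here is a share of a total that also holds noncoding RNA. Markers of the labelled cell type were present at low levels. The median over 10 smooth muscle markers was 11.7 CPM, with 9 of 10 at a mean of at least 1 CPM, 6 at 10 or more and 0 at 100 or more. The median over 10 markers of T, B and natural killer cells was 97.9 CPM, with 10 of 10 at 10 CPM or more. The medians were 350.5 CPM over 5 red cell markers and 75.3 CPM over 6 fibroblast markers. They were 56.4 CPM over 6 endothelial markers and 33.6 CPM over 7 epithelial markers. All of these lay above the smooth muscle median. The median over 6 myeloid markers, 12.1 CPM, was not separated from that of smooth muscle beyond the spread between libraries. On a log2 scale they were 3.61 ± 0.46 and 3.57 ± 0.25, and in WT library 2 the myeloid median was lower, at 3.10 against 3.81. The medians over 9 pericyte and 8 striated muscle markers, 3.19 and 1.07 CPM, lay below the smooth muscle median. The club cell marker Scgb1a1 alone averaged 7822 CPM. The levels below are those of the sorted material as a whole. In such bulk RNA, fewer cells of a type and less RNA per cell cannot be told apart.

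Nearly all respiratory chain genes were detected at moderate levels. Of the 85 genes, 80 (94.1%) had a mean of at least 1 CPM and 72 (84.7%) of at least 10 CPM. Of the 21920 other nuclear protein-coding genes, 59.3% reached 1 CPM and 35.6% reached 10 CPM. At 100 CPM the members' share was near that of the other genes, since 4 members (4.71%) reached it, compared with 5.89% of the other genes. The 4 were Atp5a1 and Atp5b, which form the catalytic head of ATP synthase, at 230 ± 14.9 and 229 ± 6.31 CPM (SD, n = 3), the ATP synthase stalk subunit Atp5h at 111 ± 9.04 CPM, and Sdha, the flavoprotein of complex II, at 101 ± 5.50 CPM.

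The members took 0.296%, 0.274% and 0.283% of all counts in WT libraries 1, 2 and 3, with 95% Wilson intervals at most 0.00507 percentage points wide. As a share of nuclear protein-coding counts these were 0.521%, 0.466% and 0.450%. By complex the mean share of all counts was 0.104% for ATP synthase, 0.0820% for complex I, 0.0521% for complex IV, 0.0283% for complex III and 0.0157% for complex II. These shares follow the number and the length of the genes as well as their level.

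On the log2(CPM + 0.1) scale the members had a median of 4.59 ± 0.09, which equals 24.0 CPM, and the 14001 other nuclear protein-coding genes with a mean of at least 0.5 CPM had a median of 3.70 ± 0.07, or 13.03 CPM. The other genes had passed a minimum level and the members had not. Most members are short genes, and levels were therefore also divided by the length of the union of each gene's exons. On the log2(CPM per kilobase + 0.1) scale the medians were 3.82 ± 0.18 for the members and 1.66 ± 0.08 for 13984 other genes, or 14.1 and 3.16 CPM per kilobase. With the length of the shortest APPRIS principal transcript, the annotation's main protein-coding form, they were 28.4 and 5.07 CPM per kilobase.

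**Figure D1:**
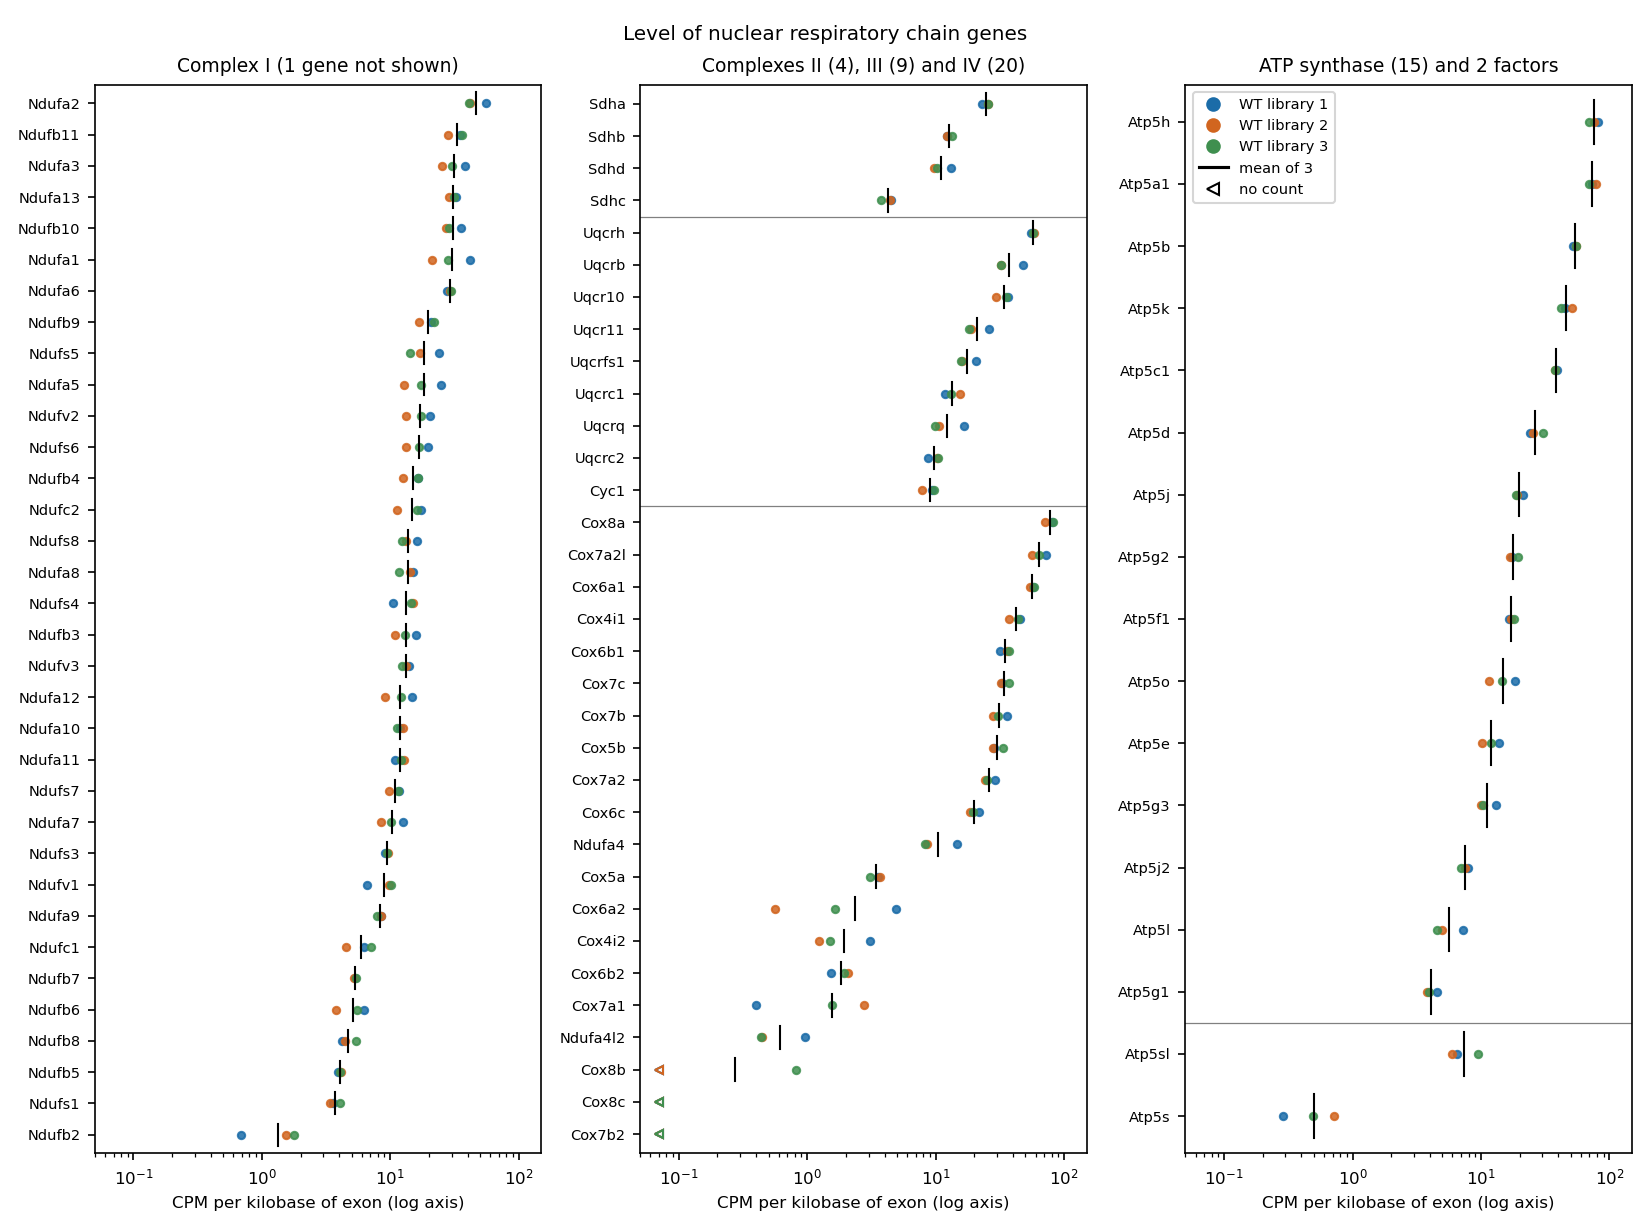
Level of the respiratory chain genes in CPM per kilobase of exon (log axis), grouped by complex and ordered by the mean; 1 gene of complex I is not shown. Points are the 3 WT libraries, the bar is their mean and open triangles mark libraries with no count. Complex IV spans the widest range, with Cox8a at 78.1 CPM per kilobase and Cox7b2 and Cox8c without a count.

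Complex I, the largest complex, had all 35 of its genes at a mean of at least 1 CPM, 32 at 10 CPM or more and 0 at 100 CPM or more. Its median level was 3.74 ± 0.15 on the log2(CPM per kilobase + 0.1) scale. Per kilobase of the union of exons the 3 highest were accessory subunits, which surround the catalytic core and are needed for its assembly or stability. Ndufa2 (chromosome 18, 36742332 to 36744557) had 55.9, 41.5 and 41.2 CPM per kilobase in WT libraries 1, 2 and 3. Ndufb11 on chromosome X had 35.03, 28.3 and 36.0 CPM per kilobase. Ndufa3 had 37.8, 25.2 and 30.1 CPM per kilobase. Ndufa2 was highest in library 1, and its lowest library still lay above the highest library of the other two. This order held for the union of exons and turned with the principal transcript, where Ndufa3 had 75.0, 49.9 and 59.8 CPM per kilobase, above Ndufa2 in each library. The highest complex I gene was then the accessory subunit Ndufa6 at 88.4 ± 3.53 CPM per kilobase (SD, n = 3). Of the exon bases of Ndufb11, 12.9% overlap Rbm10 on the other strand, which had 2821 counts over the 3 libraries. For Ndufa2 it was 11.5%, with Tmco6 at 302 counts. The levels of both genes are uncertain if strand was not used in counting.

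The 7 core subunits of complex I, which carry the flavin and the iron-sulfur clusters, had a median of 3.46 ± 0.13 on the log2 scale per kilobase, and the 28 accessory subunits one of 3.80 ± 0.14. The difference, core minus accessory, was -0.34 ± 0.08 and below 0 in 3 of 3 libraries. It was -0.22 ± 0.17 with the longest transcript and -0.22 ± 0.07 with the principal transcript in place of the union of exons. The 2 lowest complex I genes were Ndufs1, the large iron-sulfur core subunit, at 3.68 ± 0.328 CPM per kilobase and the accessory subunit Ndufb2 at 1.34 ± 0.572 CPM per kilobase (SD, n = 3). Both have a union of exons far longer than their main transcript, 8086 against 2590 bases for Ndufs1 and 5628 against 455 bases for Ndufb2. Per kilobase of the principal transcript they were at 11.5 and 16.5 CPM, and the lowest gene was then Ndufb6 at 5.16 CPM. Of the exon bases of Ndufb6, 39.0% overlap Smim27 on the other strand, which had 142 counts over the 3 libraries.

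Complex II, which is wholly nuclear-encoded and also works in the citric acid cycle, had 4 of 4 genes at 10 CPM or more. Sdha, which binds the flavin and succinate, had 23.0, 25.3 and 25.4 CPM per kilobase. Sdhb, the iron-sulfur subunit, had 12.2, 12.3 and 13.4 CPM per kilobase. The membrane anchors Sdhd and Sdhc averaged 11.1 ± 1.83 and 4.23 ± 0.399 CPM per kilobase. In each library the order was Sdha highest and Sdhc lowest, and Sdhb and Sdhd changed places in library 1, where Sdhd had 13.2 CPM per kilobase. With the principal transcript Sdhb had 23.9, 24.04 and 26.3 CPM per kilobase and lay above Sdhd in each library. The complex II median was 3.57 ± 0.11 on the log2 scale per kilobase.

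Complex III had 9 of 9 genes at 10 CPM or more and a median of 4.13 ± 0.22 on the log2 scale per kilobase. The highest was Uqcrh, the hinge protein that sits near cytochrome c1, at 55.5, 58.6 and 56.9 CPM per kilobase in WT libraries 1, 2 and 3. Uqcrb, a small subunit near the quinone site, had 47.7, 32.5 and 32.3 CPM per kilobase, and 25.4% of its 50-base words occur in transcripts of other genes. Uqcr10 had 36.6, 29.4 and 35.3 CPM per kilobase. Uqcrb was highest in library 1, where it came closest to Uqcrh, and Uqcr10 was lowest in library 2. With the principal transcript Uqcrh stayed the highest by mean at 129 CPM per kilobase, and Uqcrq at 55.7 CPM per kilobase lay above Uqcr10 at 45.4. The redox subunits lay lower. Uqcrfs1, the Rieske iron-sulfur protein, averaged 17.5 ± 2.80 CPM per kilobase, and Cyc1, cytochrome c1, was the lowest of the complex at 9.02 ± 1.001 CPM per kilobase. Next to it was Uqcrc2, a subunit of the matrix-facing part, at 9.79 ± 0.926 CPM per kilobase (SD, n = 3). The ranges of Uqcrc2 and Cyc1 overlapped, from 8.73 to 10.4 and from 7.89 to 9.79 CPM per kilobase.

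Complex IV was the most uneven complex, with several widely expressed subunits among the highest genes, and tissue-restricted forms that were at a mean of a few CPM or less. Of those forms Cox7b2 and Cox8c had no count, Cox8b had counts in library 3 only, and the others had 4 to 63 counts in a library. Of its 20 genes, 15 had a mean of at least 1 CPM and 11 of at least 10 CPM. Cox8a, the widely expressed form of subunit 8, had 80.5, 71.2 and 82.4 CPM per kilobase of the union of exons, the highest mean of the 85 genes on that length. Per kilobase of the principal transcript Cox8a averaged 87.8 CPM and lay below 7 members, led by Atp5h at 228, Cox6c at 142 and Uqcrh at 129 CPM. Cox7a2l, a relative of subunit 7a known from supercomplexes of complexes III and IV, had 71.9, 56.3 and 63.5 CPM per kilobase, and 13.8% of its words occur in other genes. Cox6a1 had 57.2, 54.5 and 58.5 CPM per kilobase. Per kilobase of the union of exons, Cox8a was the highest and Cox6a1 the lowest of the 3 in each library, while the ranges of Cox8a and Cox7a2l over the libraries overlapped. Cox5a, a matrix-side subunit, had 3.53, 3.66 and 3.07 CPM per kilobase, the lowest level among the widely expressed complex IV subunits. The median of the 20 genes was 3.84 ± 0.28 on the log2 scale per kilobase, and 4.87 over the 15 genes with a mean of at least 1 CPM.

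Pairs of related genes were compared inside each library as a log2 ratio of CPM per kilobase with 0.1 added, which understates ratios of low genes. Cox4i2, the form of subunit 4 known from lung and from oxygen sensing in pericytes and smooth muscle, had 46, 18 and 20 counts in WT libraries 1, 2 and 3, compared with 1333, 1058 and 1139 counts of Cox4i1. That is 3.09, 1.24 and 1.504 CPM per kilobase for Cox4i2 and 45.5, 37.2 and 43.5 CPM per kilobase for Cox4i1. The log2 ratio of Cox4i2 to Cox4i1 was -4.47 ± 0.54, which makes Cox4i2 22.1-fold lower, and it was below 0 in 3 of 3 libraries. Cox4i2 was highest in library 1, and the sets of values of the 2 genes did not overlap. Ndufa4l2, a pericyte and hypoxia-induced relative of the complex IV subunit Ndufa4, showed a similar gap. It had 20, 9 and 8 counts, compared with 382, 217 and 193 counts of Ndufa4, and the log2 ratio was -3.92 ± 0.11. Both genes were highest in library 1, so their ratio moved less than their levels. Both low genes are themselves pericyte markers, and the 9 pericyte markers summed to 67.3, 123 and 93.9 CPM in WT libraries 1, 2 and 3, lowest in the library where Cox4i2 and Ndufa4l2 were highest. Of these 9 markers, 8 had a mean of at least 1 CPM, 3 of at least 10 CPM and none was without a count.

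The striated muscle forms were low as well, and they did not move together. Cox6a2, the heart and skeletal muscle form of subunit 6a, had 63, 7 and 19 counts, and Cox7a1, the striated muscle form of subunit 7a, had 4, 27 and 14 counts. Cox6a2 was highest in library 1 and lowest in library 2, whereas Cox7a1 was highest in library 2 and lowest in library 1. The log2 ratio was -4.98 ± 1.43 for Cox6a2 to Cox6a1 and -4.31 ± 1.43 for Cox7a1 to Cox7a2, each below 0 in 3 of 3 libraries. Without WT library 1 the first was -5.71 and the second -3.52, and without library 2 they were -4.29 and -4.91. Cox8b, the striated muscle form of subunit 8, had no count in libraries 1 and 2 and 5 counts in library 3, where Cox8a was 100.1-fold higher per kilobase. In libraries 1 and 2, set against a floor of 3 counts per library, Cox8a was at least 183-fold and 157-fold higher. The 8 striated muscle markers, such as the cardiac myosins and troponins, summed to 14.98, 15.4 and 20.7 CPM, with 6 of 8 at a mean of at least 1 CPM and 0 at 10 CPM or more, and Tnnc1 and Myl2 had no count in 1 library each. Whether a trace of striated muscle cells contributed to these genes was not tested.

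Of the testis forms, Cox6b2 was detected and the other two were not. Cox7b2 and Cox8c had no count in any library, so a level of up to 0.178 CPM could have been missed in library 3, the shallowest. Set against 3 counts per library, Cox7b was at least 122-fold, 92.1-fold and 93.2-fold higher than Cox7b2 in WT libraries 1, 2 and 3, and Cox8a at least 232-fold, 199.5-fold and 212-fold higher than Cox8c. Cox6b2, the testis form of subunit 6b, was detected at 32, 42 and 36 counts, with a log2 ratio to Cox6b1 of -4.17 ± 0.12. Among the complex IV pairs Cox7a2l was the exception, since it exceeded Cox7a2 by 1.28 ± 0.07 on the log2 scale in 3 of 3 libraries.

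**Figure D2:**
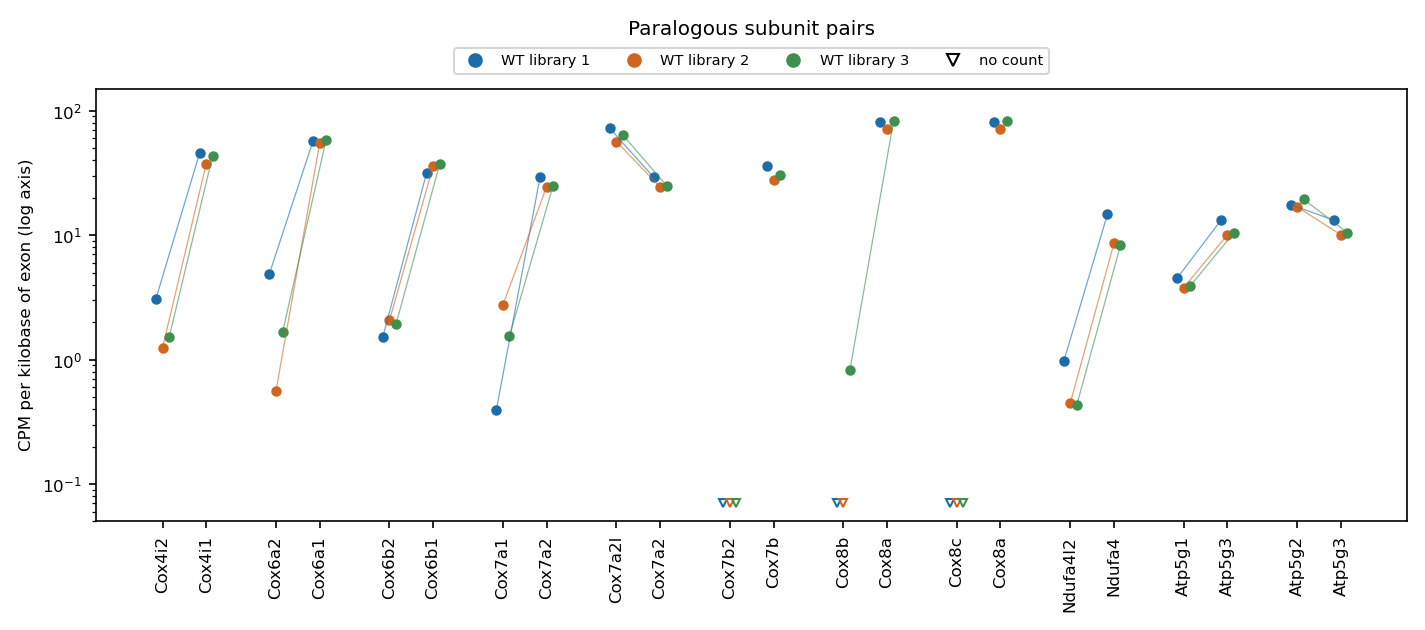
Paralogous pairs, each with the alternative form on the left and the form it is compared with on the right, in CPM per kilobase of exon (log axis). Points are the 3 WT libraries, lines join values of the same library, and open triangles mark no count. Cox4i2, Cox6a2, Cox6b2, Cox7a1 and Ndufa4l2 lie below their partners in each library, and Cox7a2l and Atp5g2 lie above theirs.

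ATP synthase had 15 of 15 genes at 10 CPM or more and, over all genes of each complex, the highest median of the 5, 4.19 ± 0.06 on the log2 scale per kilobase of the union of exons. Over genes with a mean of at least 1 CPM the complex IV median was higher, 4.87 against 4.19. Atp5h, subunit d of the peripheral stalk that holds the catalytic head still, had 81.6, 76.5 and 69.3 CPM per kilobase in WT libraries 1, 2 and 3. Atp5a1, the alpha subunit, had 72.8, 78.6 and 69.1 CPM per kilobase. Atp5b, the beta subunit that holds the catalytic sites, had 52.5, 55.3 and 54.7 CPM per kilobase. Atp5h and Atp5a1 overlapped over the libraries, and Atp5b lay below both in each library. Both statements turned with the principal transcript, where Atp5h had 246, 230.5 and 209 CPM per kilobase, Atp5b 116, 122 and 121 and Atp5a1 92.4, 99.7 and 87.7. Atp5h then did not overlap the other two and Atp5b lay above Atp5a1 in each library. Of the words of Atp5h, 19.9% occur in transcripts of other genes, so its level is uncertain. The 2 lowest were Atp5l, subunit g of the membrane part, at 5.62 ± 1.45 CPM per kilobase and Atp5g1, which encodes the proton-carrying c subunit, at 4.07 ± 0.391 CPM per kilobase (SD, n = 3). Their unions of exons, 6443 and 4912 bases, are far longer than the main transcripts, and per kilobase of the 544-base and 596-base principal transcripts the levels were 66.5 and 33.5 CPM.

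Differences between complexes depended on that choice of length and, for complex IV, on the forms without or with few counts. Over genes with a mean of at least 1 CPM its difference to ATP synthase changed direction per kilobase of the union of exons. With the principal transcript it did not. The medians of these genes were then 39.8 CPM per kilobase in complex IV and 62.4 in ATP synthase. Per kilobase of the union of exons, ATP synthase exceeded complex I by 0.45 ± 0.16 and complex II by 0.62 ± 0.07 on the log2 scale, in 3 of 3 libraries. It exceeded complex IV by 0.34 ± 0.27 in 3 of 3 libraries and complex III by 0.06 ± 0.22 in 2 of 3, so ATP synthase and complex III were not separated beyond the spread between libraries. With the longest protein-coding transcript the differences of ATP synthase were 1.14 ± 0.08 to complex I, 1.42 ± 0.11 to complex II, 0.68 ± 0.14 to complex III and 0.63 ± 0.27 to complex IV, and with the principal transcript 1.36 ± 0.11, 1.90 ± 0.05, 0.76 ± 0.16 and 0.92 ± 0.18. Under each of the 3 lengths, over all genes of each complex, the ATP synthase median was the highest and the complex II median the lowest. Inside ATP synthase, the 5 F1 subunits of the catalytic head exceeded the 10 membrane and stalk subunits by 1.28 ± 0.12 with the union of exons, but by 0.22 ± 0.19 and 0.27 ± 0.04 with the other lengths.

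Outside the complexes proper, Atp5sl, a relative of factor B that acts in complex I assembly, had 19.7, 18.0 and 28.8 CPM. Atp5s, factor B, had 0.582, 1.47 and 1.01 CPM and a mean of 1.02 ± 0.445, the nearest above 1 CPM. The nearest below 1 CPM was Cox7a1, at 0.837 ± 0.630 CPM (SD, n = 3).

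The c subunit shows how alike some members are. Atp5g1 (chromosome 11, 96068852 to 96075670), Atp5g2 (chromosome 15, 102662864 to 102672352) and Atp5g3 (chromosome 2, 73908447 to 73911326) encode precursors that differ in the import sequence, which is cut off, and give the same mature ring protein. The last 225 coding bases of each gene, from the principal transcripts of the mouse GRCm38 annotation, are shown because they encode the same mature protein in different bases. Capitals mark the positions at which the 3 genes are not identical.
Atp5g1: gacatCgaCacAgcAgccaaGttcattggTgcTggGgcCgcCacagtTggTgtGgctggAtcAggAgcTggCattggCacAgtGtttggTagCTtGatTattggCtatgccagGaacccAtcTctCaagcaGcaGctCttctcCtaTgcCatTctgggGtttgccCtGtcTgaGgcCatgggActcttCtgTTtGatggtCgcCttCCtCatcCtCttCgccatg
Atp5g2: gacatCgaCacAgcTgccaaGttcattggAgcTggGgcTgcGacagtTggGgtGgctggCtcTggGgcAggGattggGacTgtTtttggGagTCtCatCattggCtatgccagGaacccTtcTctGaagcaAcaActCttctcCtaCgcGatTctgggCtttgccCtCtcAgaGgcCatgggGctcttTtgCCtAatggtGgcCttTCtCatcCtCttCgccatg
Atp5g3: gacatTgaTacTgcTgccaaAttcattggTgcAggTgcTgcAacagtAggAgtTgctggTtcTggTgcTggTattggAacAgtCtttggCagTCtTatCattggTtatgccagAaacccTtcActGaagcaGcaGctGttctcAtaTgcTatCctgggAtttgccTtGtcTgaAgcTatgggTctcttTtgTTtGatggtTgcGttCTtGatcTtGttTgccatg
The translation of the stretch was the same in all 75 residues for each pair of genes, while 57 of 225 bases were not shared by all 3. Atp5g1 and Atp5g2 were identical at 191 bases (84.9%), Atp5g1 and Atp5g3 at 180 (80.0%) and Atp5g2 and Atp5g3 at 177 (78.7%). The longest identical run was 20 bases, shorter than the 50-base words used to measure shared sequence, so reads of that length in the stretch differ between the 3 genes. Over whole transcripts, 38.3% of the words of Atp5g2 and 10.2% of those of Atp5g1 occur in transcripts of other genes, and 0% of those of Atp5g3.

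The 3 c subunit genes were all expressed. Of their summed counts, Atp5g2 took 36.6%, 41.0% and 43.5% in WT libraries 1, 2 and 3. Atp5g3 took 35.7%, 31.9% and 30.7%, and Atp5g1 27.7%, 27.1% and 25.8%. Atp5g2 had the largest share and Atp5g1 the smallest in each library. Per kilobase of exon, Atp5g2 exceeded Atp5g3 by 0.68 ± 0.24 on the log2 scale, and the ratio of Atp5g1 to Atp5g3 was -1.43 ± 0.07. The difference of Atp5g2 to Atp5g3 was 0.99 ± 0.24 with principal transcripts. With longest transcripts it was 0.24 ± 0.24, which is close to its SD. With principal transcripts the ratio of Atp5g1 to Atp5g3 was -0.02 ± 0.07, which is within its SD of 0, so the order of these 2 genes per length was not settled.

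The respiratory chain is built from both genomes, and its mitochondrially encoded subunits were far more abundant. Summed over genes, the 35 nuclear genes of complex I had 868, 765 and 827 CPM and its 7 mitochondrial genes 6465, 5529 and 7744 CPM in WT libraries 1, 2 and 3. For complex IV, 20 nuclear genes summed to 556, 478 and 529 CPM and 3 mitochondrial genes to 8557, 7538 and 9766 CPM. The 9 nuclear genes of complex III summed to 283 ± 13.8 CPM, and mt-Cytb alone had 2019 ± 373 CPM. The 15 nuclear genes of ATP synthase summed to 1042 ± 24.6 CPM, and mt-Atp6 and mt-Atp8 together to 3494 ± 253 CPM (SD, n = 3). The log2 ratio of the mitochondrial to the nuclear sum was 4.04 ± 0.14 in complex IV, 2.99 ± 0.20 in complex I, 2.82 ± 0.29 in complex III and 1.74 ± 0.12 in ATP synthase. In each complex the 2 genomes did not overlap over the libraries. The mitochondrial sums were highest in library 3 and lowest in library 2. This order is that of CPM without scaling between libraries and may change with such scaling. The nuclear sums were highest in library 1. Summed CPM counts long transcripts more than short ones, and the mitochondrial subunits took 2.06%, 1.79% and 2.36% of all counts.

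**Figure D3:**
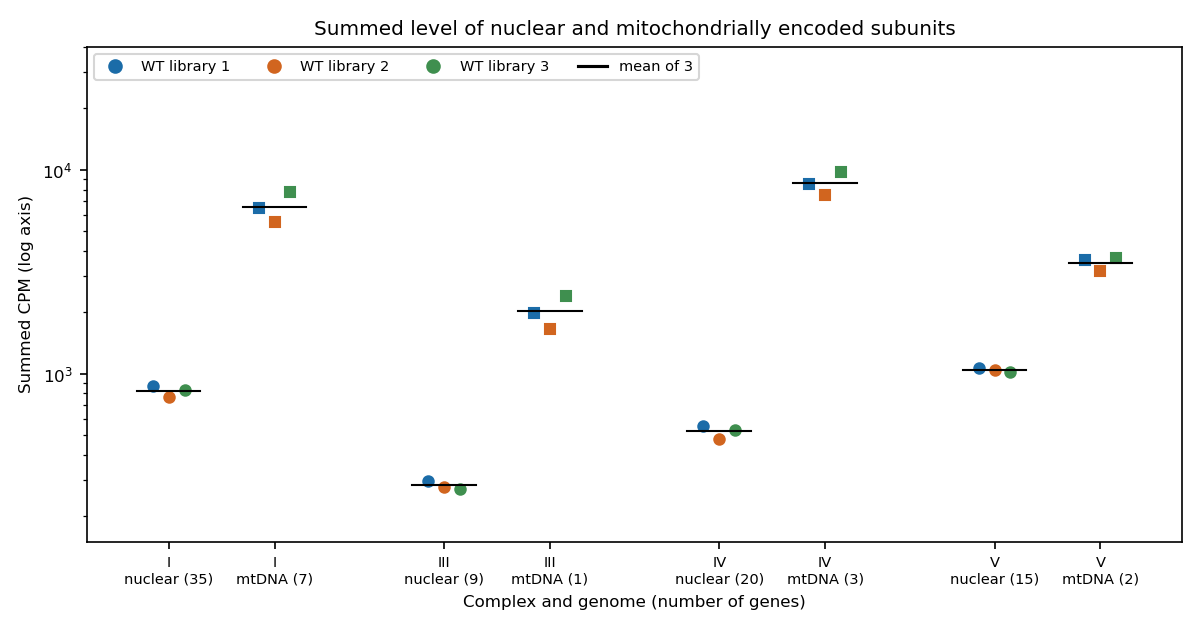
Summed CPM (log axis) of the nuclear genes and of the mitochondrial DNA (mtDNA) genes of complexes I, III, IV and V, with the number of genes in brackets. Points are the 3 WT libraries and bars their mean. The nuclear sums lie below the mtDNA sums in each complex, by the most in complex IV, where they average 521 CPM, against 8620 CPM for mtDNA.

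Assembly factors of the complexes lay below the subunits in CPM, and the factors are ranked here by CPM not divided by length. For complex I, 14 of 15 matched factors had a mean of at least 1 CPM and 3 of at least 10 CPM, with a median of 2.604 ± 0.29 on the log2(CPM + 0.1) scale, or 5.98 CPM. Ndufaf4, Foxred1 and Acad9 were the highest, at 12.4 ± 3.94, 11.8 ± 1.68 and 10.4 ± 3.89 CPM, and Ndufaf6 the lowest, at 0.914 ± 0.555 CPM (SD, n = 3). Per kilobase of the union of exons Ndufaf8 was the highest, at 7.30 CPM, and Acad9 was at 1.27 CPM. For complex II, Sdhaf2, which attaches the flavin to Sdha, had 16.6 ± 5.18 CPM, and the other factors of its list of 4 lay between 1.27 CPM for Sdhaf4 and 2.49 CPM for Sdhaf3, with Sdhaf1 at 2.13 CPM. For complex III, 4 of 6 factors reached 10 CPM, led by Ttc19 at 21.0 ± 2.15 CPM, Uqcc1 at 14.3 ± 0.179 CPM and Uqcc2 at 12.9 ± 7.17 CPM. Uqcc2 had 21.2, 7.95 and 9.72 CPM, highest in library 1. Lyrm7, which helps to insert the Rieske protein, was the lowest at 1.63 ± 0.586 CPM. Per kilobase of the union of exons Uqcc2 at 15.5 and Uqcc3 at 13.2 CPM lay above Ttc19 at 4.49 and Uqcc1 at 2.37 CPM.

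For complex IV, 18 of 21 factors had a mean of at least 1 CPM and 6 of at least 10 CPM, and the median was 5.91 CPM. Lrpprc, which stabilises mitochondrial mRNAs, had 41.6 ± 8.42 CPM, Coa5 had 32.7 ± 1.82 CPM and Surf1, which acts early in the assembly of Cox1, had 15.05 ± 1.54 CPM. Sco2, a copper chaperone, and Pet117 had no count in any library. For ATP synthase, Atpaf2 and Atpaf1, the chaperones of the alpha and beta subunits, and Tmem70 had 10.3 ± 2.55, 8.28 ± 2.02 and 6.85 ± 1.88 CPM. In CPM not divided by length, 72 of 85 members reached 10 CPM, and 15 of 49 assembly factors did. Of 46 assembly factors tested, 31 (67.4%) differed between libraries beyond counting error in the homogeneity test, which called 70.0% of all genes.

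Of 17 regulators of the chain, 16 had a mean of at least 1 CPM and 13 of at least 10 CPM, with a median of 38.0 CPM. The 4 below 10 CPM were Esrra at 9.01, Tfb1m, a mitochondrial rRNA methyltransferase, at 2.94, Ppargc1a at 1.45 and Esrrg at 0.353 CPM. Hif1a, the hypoxia-inducible factor, had 83.3, 87.7 and 96.0 CPM. Yy1, a widely expressed transcription factor, and Chchd2, a mitochondrial protein that can also act in the nucleus, averaged 73.7 ± 8.29 and 64.8 ± 4.94 CPM (SD, n = 3). Nrf1, the nuclear respiratory factor that binds promoters of chain subunits, had 43.4, 42.8 and 50.01 CPM, and Gabpa, the ETS factor also called nuclear respiratory factor 2, had 38.7, 58.6 and 52.1 CPM. The coactivator Ppargc1a averaged 1.45 ± 0.703 CPM, compared with 50.7 ± 1.66 CPM for its relative Pprc1 and 10.7 ± 1.27 CPM for Ppargc1b. Esrrg, an oestrogen-related receptor of heart and oxidative muscle, was the lowest at 0, 0.763 and 0.296 CPM.

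Genes that work beside the chain were at moderate levels. The median was 36.0 CPM over 9 carriers and chain genes that the name pattern does not take. It was 37.5 CPM over 13 citric acid cycle enzymes and 24.0 CPM over the 85 members, none of them divided by length. Per kilobase of the union of exons the members' median was 14.1 CPM. Of the cycle enzymes, Ogdh at 22.8 and Mdh2 at 16.0 CPM per kilobase alone lay above that median. Of the carriers and chain genes, Slc25a5, Ucp2, Slc25a3, Higd2a and Slc25a4 lay above it, at 57.6 to 18.8 CPM per kilobase. Ucp2, an uncoupling protein of immune and other cells, had 367, 293 and 330 CPM. The phosphate carrier Slc25a3 averaged 160 ± 47.2 CPM and the ATP and ADP carrier Slc25a5 94.8 ± 3.74 CPM, above the muscle form Slc25a4 at 44.3 ± 7.37 CPM (SD, n = 3). Cycs, cytochrome c, had 36.0 ± 2.999 CPM, and its testis form Cyct had no count. In the citric acid cycle Ogdh led at 125 ± 5.50 CPM, followed by Cs at 60.9 ± 4.205 CPM and Mdh2 at 56.9 ± 6.27 CPM, and Suclg2 was the lowest at 18.0 ± 1.56 CPM.

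**Figure D4:**
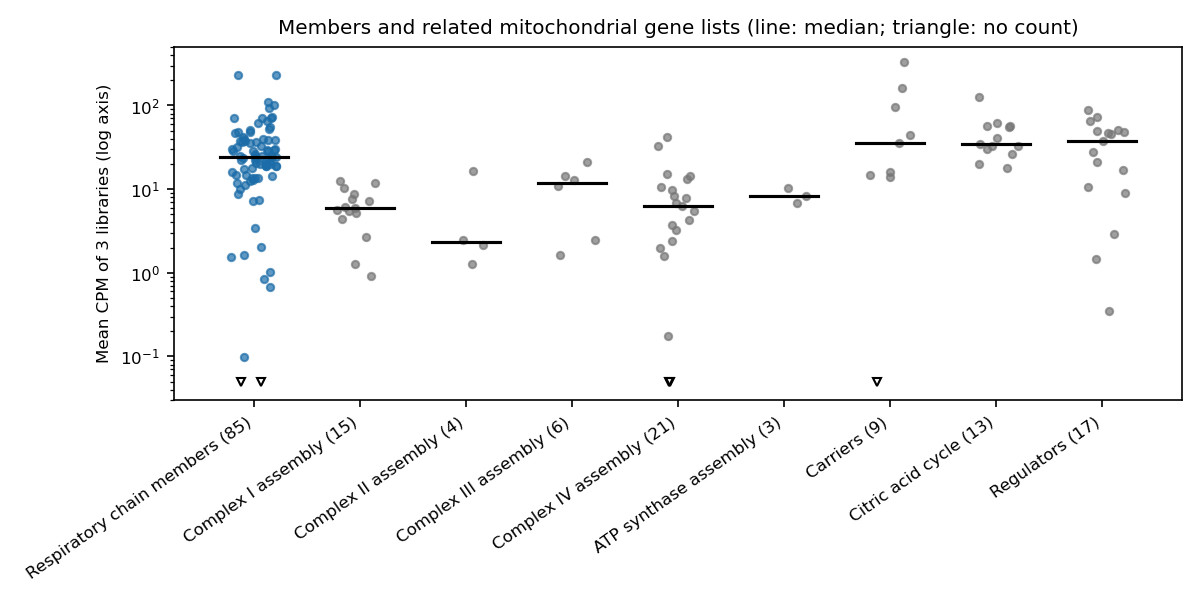
Mean CPM of the 3 WT libraries (log axis) for the 85 members and for 8 lists of related genes, with the number of genes in brackets. Each point is a gene, lines are medians of the points and triangles mark genes without a count. Most assembly factors lie below 10 CPM, and most citric acid cycle genes and regulators above it.

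Promoters of the members were searched for the letters that these regulators bind. RefSeq promoters of the mouse GRCm38.p6 assembly matched 66 of 85 members by symbol, and the 250 bases before each gene's start were read on both strands. The motifs were GCGCA, any base and GCGC in a row for Nrf1, CCGGAAG for ETS factors such as Gabpa, AAGATGGCG for Yy1 and TATAAA for the TATA box. The Nrf1 letters occurred in 12 of 66 members (18.2%), in 7.69% of 10590 other nuclear protein-coding genes with a mean of at least 0.5 CPM and in 3.86% of all 27025 promoters. The ETS letters occurred in 11 members (16.7%), in 13.04% of the other expressed genes and in 7.05% of all promoters. The TATA letters occurred in 6 members (9.09%), in 6.82% of the other expressed genes and in 12.97% of all promoters. The Yy1 letters occurred in 0 members and in 1.10% of the other expressed genes. The median number of CG pairs was 14 in the members, 15 in the other expressed genes and 6 in all promoters.

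Stretches of 3 of these promoters are shown because they hold Nrf1 letters and belong to the highest member of complex II, the highest member of ATP synthase and a member among the 3 highest of complex IV, all per kilobase of the union of exons. Each runs from base 250 to base 46 before the RefSeq start and is written 5′ to 3′ on the minus strand, which these genes use, at chr5:115349004-115349208 for Cox6a1, chr13:74350286-74350490 for Sdha and chr11:115419965-115420169 for Atp5h. Capitals mark the Nrf1 letters.
Cox6a1: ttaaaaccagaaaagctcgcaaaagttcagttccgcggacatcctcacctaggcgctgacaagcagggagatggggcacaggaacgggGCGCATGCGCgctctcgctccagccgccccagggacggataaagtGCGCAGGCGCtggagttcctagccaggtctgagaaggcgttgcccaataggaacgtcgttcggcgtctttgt
Sdha: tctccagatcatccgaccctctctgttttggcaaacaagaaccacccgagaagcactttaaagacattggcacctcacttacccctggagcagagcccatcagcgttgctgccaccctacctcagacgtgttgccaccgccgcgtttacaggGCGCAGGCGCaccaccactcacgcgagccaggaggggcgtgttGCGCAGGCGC
Atp5h: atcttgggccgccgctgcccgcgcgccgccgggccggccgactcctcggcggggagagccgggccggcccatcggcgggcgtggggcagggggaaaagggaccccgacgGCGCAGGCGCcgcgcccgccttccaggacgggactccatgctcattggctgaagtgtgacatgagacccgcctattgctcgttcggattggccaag
The stretch holds 2 matches in Cox6a1, 2 in Sdha and 1 in Atp5h, and the bases nearer to the start, not shown, hold a further match in Sdha and an ETS match in each of the other two. Among the 12 members with Nrf1 letters, Ndufb4 and Sdha had the most, 3 each. A match of letters is not evidence of binding, and no match says only that the letters are not in this window.

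The libraries differed from each other at most members, about as often as at other genes of the same abundance. In a chi-square test of homogeneity over the 3 libraries, with Benjamini-Hochberg adjustment over the 23317 genes with at least 10 counts, 63 of 82 members tested (76.8%) differed beyond counting error. The share was 70.0% over all genes, 73.1% over nuclear protein-coding genes and 76.5% over 3046 other nuclear protein-coding genes with total counts between the quartiles of the members, so the members' share is near the background. When a range of at least 1.5-fold between libraries was asked for in addition, 23 members (28.0%) passed, compared with 46.9%, 42.5% and 25.5% of these 3 sets. Without WT library 1, 25 of 82 members (30.5%) differed, compared with 38.2% of all genes, without library 2 it was 50 (61.0%), compared with 53.4% of all genes, and without library 3 it was 49 (59.8%), compared with 56.8%. In the same range of counts the median coefficient of variation was 14.3% over 40 members and 14.9% over the 3046 other genes.

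The widest ranges among the 72 members with a mean of at least 10 CPM belonged to 5 small subunits. Ndufa1, a single-span membrane subunit encoded on chromosome X, had 17.5, 8.77 and 11.7 CPM in WT libraries 1, 2 and 3. Ndufa5 had 25.6, 13.1 and 17.9 CPM and Ndufa4 20.2, 11.8 and 11.4 CPM. Ndufs5 had 20.5, 14.8 and 12.2 CPM and the complex III subunit Uqcrq 30.2, 19.4 and 18.0 CPM. Library 1 was highest for each of the 5, and library 2 was lowest for Ndufa1 and Ndufa5 and library 3 for the others. Their adjusted p in the homogeneity test lay between 1.04e-12 for Ndufs5 and 4.5e-21 for Uqcrq. Of the words of Ndufs5, 21.7% occur in transcripts of other genes, so its level is uncertain. Other members had narrow ranges in CPM, such as Atp5c1, the gamma subunit of ATP synthase, at 74.4, 71.4 and 72.6 CPM, and Ndufb7 at 24.0, 23.5 and 24.6 CPM, and these 2 genes were chosen after their values were seen. In the chi-square test of homogeneity, which uses TMM scaling, Atp5c1 still differed beyond counting error, with an adjusted p of 0.00243 and a range of 1.15-fold, and Ndufb7 had an adjusted p of 0.423.

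That direction was shared by most members. With library sizes scaled by the TMM method of edgeR, 49 of the 72 members with a mean of at least 10 CPM (68.1%) were highest in library 1, 17 in library 2 and 6 in library 3, and of 7811 other nuclear protein-coding genes at that level 37.8% were highest in library 1. Without the scaling 39 of 72 members (54.2%) and 24.7% of the other genes were highest in library 1. By complex, over members at any level and with TMM scaling, library 1 was highest for 23 of 35 genes of complex I, 3 of 4 of complex II, 6 of 9 of complex III, 11 of 20 of complex IV and 10 of 15 of ATP synthase. Without the scaling the numbers were 18, 2, 5, 9 and 9. The shares of other genes given above are at a mean of at least 10 CPM and are not matched to these counts by complex. Marker sums moved between the libraries too. In WT libraries 1, 2 and 3 the 7 epithelial markers summed to 14812, 2971 and 8030 CPM, the 6 endothelial markers to 739, 432 and 554 CPM and the 6 myeloid markers to 846, 235 and 310 CPM, each highest in library 1. Scgb1a1 made up most of the epithelial sum, at 13192, 2632 and 7641 CPM, and the other 6 markers summed to 1620.2, 339 and 389.5 CPM. The 10 markers of T, B and natural killer cells summed to 884, 1056 and 1159 CPM, lowest in library 1. The 5 red cell markers summed to 729, 3336 and 1107 CPM and the 6 fibroblast markers to 270.4, 584 and 583 CPM, each lowest in library 1. The 10 smooth muscle markers summed to 141, 188 and 156 CPM, and of all these markers Cnn1 alone, of smooth muscle, had no count in a library, with 0, 7 and 5 counts. The part of these cells in the members' levels was not tested.

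Members with short transcripts stood further above the other libraries in library 1, a relation that was examined after the values were seen. The measure was the log2 level in library 1 minus the mean of libraries 2 and 3, with TMM scaling, for genes with a mean of at least 10 CPM, in classes of principal transcript length. Below 600 bases the median over 24 members was 0.38, with 23 of 24 above 0. It was 0.29 over 21 members from 600 to 1000 bases, 0.15 over 21 members from 1000 to 2000 bases and 0.07 over 6 members of 2000 bases or more. Over other nuclear protein-coding genes the medians of the same classes were 0.10, 0.12, 0.03 and -0.03, with 111 genes in the shortest class. Across the 72 members, which share 3 libraries and are not independent replicates, Pearson's r with the log of length was -0.45 and Spearman's rho -0.43, and across 7766 other genes they were -0.11 and -0.12. The class of 6 members is thinly filled. Whether the length of the RNA in library 1 was different was not tested.

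**Figure D5:**
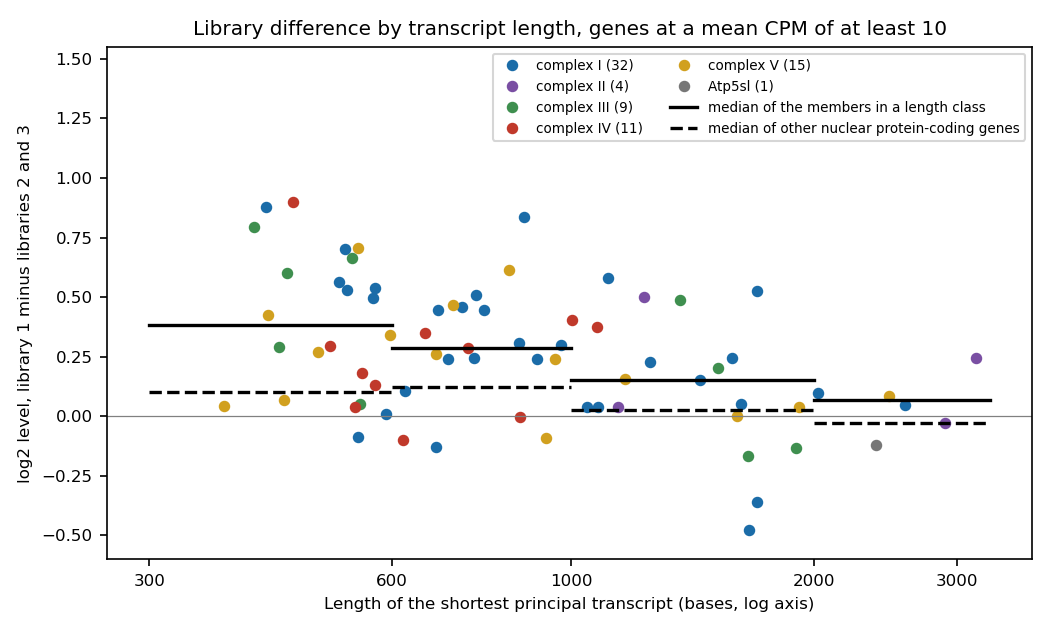
Difference in log2 level between WT library 1 and the mean of libraries 2 and 3, by length of the shortest principal transcript (log axis), for the 72 members with a mean of at least 10 CPM. Solid lines are medians of the members and broken lines those of other nuclear protein-coding genes in the same length classes. Members below 600 bases lie above 0 in 23 of 24 cases, with a median of 0.38.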

How the data were processed

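RNA-seq of 3 libraries was analysed from the authors' deposited table, which gives raw read counts for 48709 mouse genes with Ensembl IDs. Tools named in the submitters' processing notes were DESeq2 1.18.1, featureCounts 1.6.3 from Subread, STAR 2.6.1d, Trimmomatic 0.38 and FastQC; their settings and order are not named. The notes name human builds, whereas the gene IDs are mouse, and the sources used here do not give the strand setting of the counting. Per the labels' protocols, total RNA was extracted with a kit that keeps small RNA, treated with DNase and made into stranded libraries, so unspliced and noncoding RNA is counted. Columns named as controls 1 to 3 were assigned to the WT libraries by number, and each count column was used.

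From the counts, CPM was computed with the total of all counts as library size, and CPM per kilobase with the union of exons in GENCODE M21 (GRCm38), which held all 85 members, 62 with the same coordinates as the table. Coordinates are those of the table. Medians used log2 with a pseudocount of 0.1. Variation between libraries was tested with a chi-square test of homogeneity on library sizes scaled by the TMM method of edgeR 4.0.16 in R 4.3.3, at an adjusted p of 0.05, with scipy 1.17.1, and was tested on simulated data. Depth was 16877297 to 18896263 counts. Wilson intervals and floors of 3 counts cover counting error only, since reads without molecular identifiers are not independent molecules.

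The members, lists and tests were chosen with earlier results of these data known. The text names, for each complex, the 3 highest and 2 lowest members per kilobase, the isoform pairs, members without a count in a library, the 5 widest ranges between libraries, the members on each side of 1 CPM, and the 3 highest and the lowest gene of each list. Values of 1 complex I gene are not reported here singly, although counts, sums and medians include it. Of 16 complex I assembly genes 15 matched a row of the table, and Ndufaf8 was matched by its ID. Alternatives covered library size, pseudocount, a minimum level, gene length, shared sequence, DESeq2 1.42.0 size factors and each library left out. The principal transcript length, the length classes and the promoter motifs were chosen after the data were seen. So were the genes named because they lead with the principal transcript (Ndufa6, Cox6c), the regulators below 10 CPM and the epithelial sum without Scgb1a1.

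Exons of 26 members overlap exons of a gene on the other strand, so reads of these genes cannot be told apart if strand was not used in counting. Of 13 members, over 10% of the 50-base words occur in transcripts of another gene, and their levels are uncertain.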

Additional observations from a re-analysis of the deposited data

Results flagged for a closer look

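Named processed pseudogenes of members, which lie outside the protein-coding rule, carried counts above the limit of 3 counts in every library, and this is why they are listed. Atp5l2-ps on chromosome 11 had 473, 244 and 201 counts in WT libraries 1, 2 and 3, a mean of 16.7 CPM. Atp5l-ps1 on chromosome 7 had 249, 120 and 136 counts, a mean of 9.26 CPM. Both were highest in library 1, as was the gene Atp5l itself, at 886, 591 and 498 counts. Atp5l-ps2 averaged 1.40 CPM, Uqcrh-ps1 1.56 CPM and Atp5k-ps2 0.409 CPM. Of the 50-base words of Atp5l, 2.51% occur in Atp5l2-ps and 1.88% in Atp5l-ps1. A 6th pseudogene, Uqcrh-ps2, had 19, 19 and 3 counts and did not pass the limit in library 3. How the counting assigned reads that match both a gene and its pseudogene was not tested.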

How the results depend on the processing

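Over 28 results and 197 alternatives, 145 values moved by less than the spread between libraries or, for counts, less than 1.5-fold. Another 52 moved further and 0 changed sign. Differences between complexes were not among the 28 results. Over genes with a mean of at least 1 CPM, the difference of ATP synthase to complex IV changed direction with the union of exons. It did not change direction with the principal transcript. Values are log2 unless named.

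With nuclear protein-coding counts as library size, the member median was 5.33, and the medians per kilobase were 4.48, 4.31, 4.87, 4.59 and 4.93 for complexes I to V. The list medians were then 3.34, 1.87, 4.16, 3.33 and 3.68 for the assembly factors of complexes I to V, 10.99 for mitochondrially encoded subunits, 5.999 for regulators, 5.92 for carriers and 5.98 for the citric acid cycle. With it 11 members reached 100 CPM, and the summed share was 0.479%.

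With the longest transcript the complex medians were 4.32, 4.05, 4.79, 4.83 and 5.47, and with the principal transcript, added after the data were seen, 4.59, 4.05, 5.19, 5.03 and 5.95. With a pseudocount of 1 those of complexes II and V were 3.67 and 4.26. Over genes with a mean of at least 1 CPM the median was 4.87 for complex IV, 2.89 for its assembly factors and 5.32 for carriers. Without members sharing over 10% of words it was 1.97 for complex IV and 4.30 for complex V, and the share was 0.234%.

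The ratio of Cox4i2 to Cox4i1 was -3.92 with a pseudocount of 1, -5.38 with longest transcripts and -5.41 with principal transcripts. In the same order, Cox6b2 to Cox6b1 was -3.66, -3.48 and -3.16, Ndufa4l2 to Ndufa4 -2.80, -4.89 and -5.32, and Atp5g1 to Atp5g3 -1.26, -2.96 and -0.024. Atp5g2 to Atp5g3 was 0.24 with longest and 0.99 with principal transcripts, and Cox7a2l to Cox7a2 1.15 with longest transcripts. For these changes the cause was not tested beyond the construction of each alternative.

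Leaving out each library in turn, the member median ran from 4.54 to 4.62. The number that varied between libraries ran from 25 (30.5%, compared with 38.2% of all genes) without library 1 to 50 (61.0%, compared with 53.4%) without library 2. That number was 23 (28.0%, compared with 46.9% of all genes) with a range of at least 1.5-fold asked for, 58 (70.7%, compared with 72.1%) with library totals and 64 (78.0%, compared with 70.1%) with DESeq2 size factors. No paired analysis was possible between groups because there is only 1 group, and ratios of genes and complexes were taken within each library.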
